A study of Mus musculus with 6 samples.

Results

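The genes described here are 10 regulators of the step from G1 into S phase of the cell cycle: the cyclin E genes Ccne1 and Ccne2, the cyclin D genes Ccnd1, Ccnd2 and Ccnd3, the kinases Cdk2 and Cdk4, the E2F factors E2f1 and E2f2, and Rb1. They were taken by name from the 41388 genes of the deposited table, all 10 were found, and all 10 passed the filter of a mean of at least 0.5 RPKM (reads per kilobase of gene per 1000000 reads) that left 12693 genes for testing. The list was drawn up with the difference between Aloxe3 and β-gal in these same libraries known, so the differences of these 10 genes between the groups are descriptions and carry no test. The libraries come from primary hepatocytes, the parenchymal cells of the liver, of C57BL/6J mice, kept overnight in growth medium after collagenase digestion. For 24 h the cells then carried either adenovirus encoding beta galactosidase (β-gal, the control; replicates 1, 2 and 3) or adenovirus encoding ALOXE3, a lipoxygenase (Aloxe3; replicates 7, 8 and 9), at about 1000000 viral particles per 1000000 cells, so that the controls were infected as well and no uninfected cells are compared here. Nothing says whether the replicates came from separate mice or cultures, so the spread between them may be technical, and p-values measure only the spread between these libraries.

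Library size was 25521908 to 32431318 reads, and every pair of replicates differed by more than sampling noise. Aloxe3 replicate 9 stood apart, its chi-square over degrees of freedom being 8.99 and 9.82 against the other two Aloxe3 libraries, where all other pairs of replicates had 3.47 to 5.46. Aloxe3 itself was at 1.95 ± 0.178 with β-gal and at 48.1 ± 7.32 RPKM in Aloxe3 cells (SD, n = 3 in each group). Whether the virus carried the mouse or the human gene is not stated, so reads on the mouse gene may not measure the transgene in full. Hepatocyte markers summed to 4820 to 4880 RPKM with β-gal and 4670 to 4820 with Aloxe3, mostly Alb at 4360 to 4550 RPKM. Of this list Hnf4a was at 25.4 to 29.3 RPKM, while Cps1 (0.915 to 1.64), Asgr1 (1.46 to 2.27) and Tat (at or under 0.661) were low. Of other liver cells, Kupffer markers summed to 150 to 152 RPKM with β-gal and 132 to 145 with Aloxe3, nearly all of it Cd68, with the defining Clec4f, Vsig4 and Timd4 at or under 0.102 RPKM. Endothelial markers summed to 24.6 to 28.7 and 24.5 to 28.6 RPKM, stellate markers to 3.55 to 3.78 and 3.15 to 3.62 (Lrat at 0 throughout), cholangiocyte markers to 1510 to 1590 and 1580 to 1720 (mostly Spp1, with Sox9 at 38.3 to 49.3, Krt19 at 32.9 to 51.0 and Epcam at or under 0.456), and lymphocyte markers to 0.174 to 0.237 and 0.248 to 0.301. The part of these cells in the values that follow was not tested. In bulk RNA a lower value can mean fewer cells of a kind or less RNA per cell, and these cannot be told apart.

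Cyclins are the regulatory subunits of cyclin-dependent kinases. In the textbook order of events, D-type cyclins answer to mitogens and activate CDK4 and CDK6, which phosphorylate the retinoblastoma protein encoded by Rb1. E2F factors are then released and switch on genes for DNA synthesis, among them the E-type cyclins, which activate CDK2. Adult hepatocytes rest outside the cycle and can re-enter it after loss of liver tissue or when placed in culture.

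Promoter sequence of 6 of the 10 genes was matched in RefSeq (GRCm38.p6), in 8 windows. Ccne2, Ccnd1, Ccnd2 and Rb1 had no entry. Within the 250 bases before the start site, both strands were searched for the E2F consensus (TTTGGCGC, TTTGCCGC, TTTCGCGC or TTTCCCGC), the GC box (GGGCGG) and the E-box (CACGTG). Cdk2 alone of the 6 genes held a match to the E2F letters, which 1.86% of all 32851 promoter windows of this length hold. Ccne1 held 4 GC boxes, a motif present in 32.7% of windows, and no E2F match. Cdk2 held 5 GC boxes beside its E2F match. Cdk4 held 1 GC box and 4 E-boxes, the letters that Myc and related factors bind, where 6.02% of windows hold any. E2f1 held 4 GC boxes, E2f2 none in one window and 1 in the other, and Ccnd3 2 and 1. No matches overlapped. A match is a run of letters and not a measured binding site. The promoters of Ccne1 (chr7:38107535-38107740, minus strand), Cdk2 (chr10:128705052-128705301, minus strand) and Cdk4 (chr10:127063285-127063533, plus strand) are shown because these 3 genes stand for the cyclin E, the CDK2 and the CDK4 side of the comparison. Those of Ccne1 and Cdk4 end where the annotated gene begins, and that of Cdk2 ends at its RefSeq start site. Capitals mark the GC boxes in Ccne1 (3 of its 4 lie in the stretch printed), the E2F match in Cdk2 and the E-boxes in Cdk4.
Ccne1: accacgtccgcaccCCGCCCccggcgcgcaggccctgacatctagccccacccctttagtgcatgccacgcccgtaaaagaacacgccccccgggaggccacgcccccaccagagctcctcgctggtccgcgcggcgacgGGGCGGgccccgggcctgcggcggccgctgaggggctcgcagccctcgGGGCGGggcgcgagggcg
Cdk2: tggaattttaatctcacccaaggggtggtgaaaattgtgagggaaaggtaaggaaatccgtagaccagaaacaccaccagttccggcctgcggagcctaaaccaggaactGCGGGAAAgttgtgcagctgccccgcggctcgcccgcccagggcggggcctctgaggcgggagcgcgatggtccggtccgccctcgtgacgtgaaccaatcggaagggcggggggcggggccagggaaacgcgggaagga
Cdk4: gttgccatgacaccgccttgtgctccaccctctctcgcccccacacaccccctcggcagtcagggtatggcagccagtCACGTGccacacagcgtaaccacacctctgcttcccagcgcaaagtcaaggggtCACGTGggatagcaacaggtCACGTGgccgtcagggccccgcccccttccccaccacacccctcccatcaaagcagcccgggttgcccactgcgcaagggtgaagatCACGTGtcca

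In the β-gal cells the 10 genes covered a range from 1.32 to 55.4 RPKM, a level per length of gene. A comparison between genes rests on the exon length behind each value. For Ccnd1, Ccnd2 and Cdk2 the smallest length that gave whole reads was 3835, 5701 and 2432 bases. The later annotation GENCODE M21 has 4709, 9409 and 6219 bases for them. The order that follows, and its change with Aloxe3, thus hold for the deposited values and could differ with other lengths. Cdk4 had the highest mean, 2.11 times that of Ccnd1 at 26.3 RPKM. Below these came Ccnd2 (15.7 RPKM), Ccne1 (12.4), Cdk2 (10.1), E2f1 (9.53), Ccnd3 (5.32), Rb1 (2.09), Ccne2 (1.97) and E2f2 (1.32). The ranges of neighbours in this order over the 3 β-gal libraries were apart except for Cdk2 with E2f1 and Rb1 with Ccne2. Within a library, Cdk2 was above E2f1 in 3 of 3 and Rb1 above Ccne2 in 2 of 3. With Aloxe3 the order changed in 2 places: Ccne1 (19.2 RPKM) stood above Ccnd2 (15.8), and Ccne2 (4.05) above Rb1 (2.25), and the ranges of neighbours were apart. Relative to all tested genes, the β-gal mean of Cdk4 lay at the 92.4th percentile and that of E2f2 at the 17.8th.

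**Figure D1:**
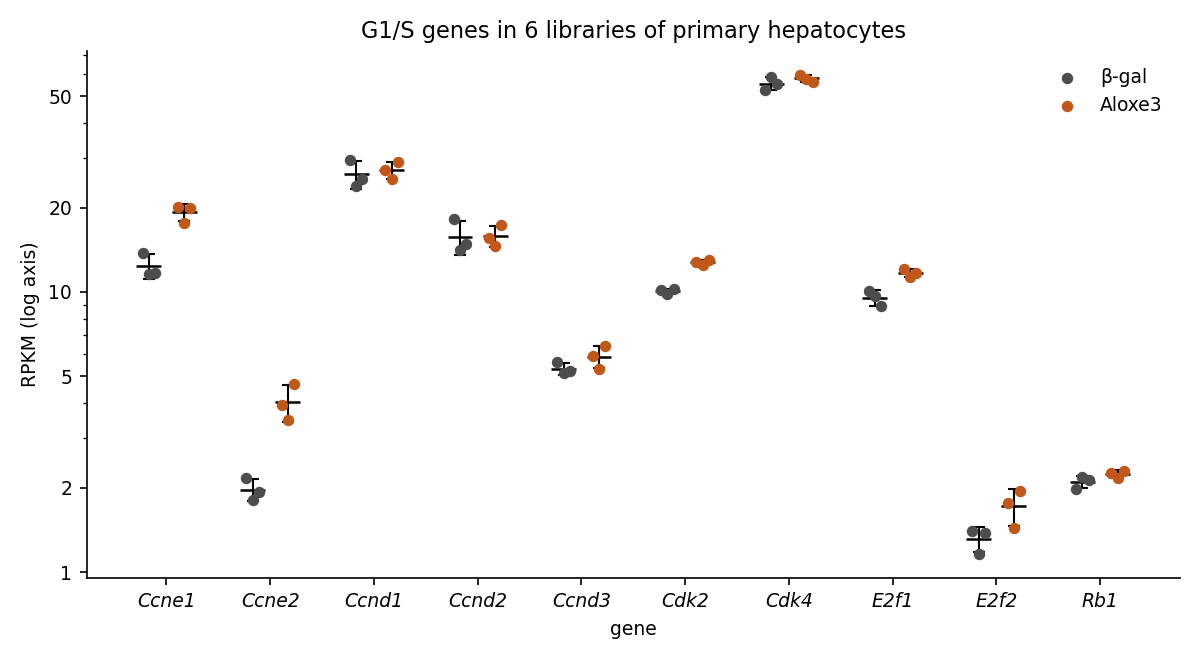
Level of each gene in RPKM (log axis) in the 3 β-gal libraries (grey) and the 3 Aloxe3 libraries (orange); each point is a library, and bars are the mean ± SD. The groups are apart for Ccne1, Ccne2, Cdk2, E2f1 and E2f2 and overlap for the cyclin D genes, Cdk4 and Rb1.

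The cyclin E genes had the 2 largest log2 fold changes of the 10, while in RPKM the difference of Ccne2 (2.08) was below those of Cdk2 (2.72), Cdk4 (2.45) and E2f1 (2.17). Ccne1 (chromosome 7, 38097984 to 38107534, GRCm38), the main cyclin E gene of these cells by level, was at 13.8, 11.5 and 11.7 RPKM in the β-gal libraries and at 20.03, 17.7 and 19.998 RPKM in the Aloxe3 libraries. Every Aloxe3 library lay above every β-gal library, by at least the gap from 13.8 to 17.7 RPKM. The means were 12.4 ± 1.26 and 19.2 ± 1.35 RPKM (SD, n = 3 in each group), a 1.56-fold higher level, from 921 to 1431 reads per library. On the log2(RPKM + 1) scale, which understates differences of low genes, the log2 fold change was 0.60 (SE 0.0762).

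Ccne2 (chromosome 4, 11191351 to 11204779), the second E-type cyclin, was the less abundant. It was at 2.17, 1.81 and 1.93 with β-gal and at 3.95, 3.501 and 4.71 RPKM with Aloxe3. The groups did not overlap, and Aloxe3 replicate 9 had the highest value. Its mean level was 2.05-fold higher, at 4.05 ± 0.611 against 1.97 ± 0.185 RPKM (SD, n = 3 in each group), with 200 to 435 reads per library. The log2 fold change was 0.76 (SE 0.0919) with a pseudocount of 1 and 1.02 with voom on the reads recovered from the table. Ccne2 per 100 RPKM of Ccne1 was 15.7, 15.7 and 16.5 with β-gal and 19.7, 19.8 and 23.5 with Aloxe3, so that the share of Ccne2 within cyclin E was higher in each Aloxe3 library.

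The D-type cyclins, the mitogen-responsive partners of CDK4 and CDK6, had overlapping groups throughout. Ccnd1 (chromosome 7, 144929931 to 144939925), the most abundant of them, was at 29.7, 23.8 and 25.3 with β-gal and at 27.3, 25.3 and 29.1 RPKM with Aloxe3. The highest of the 6 values was that of β-gal replicate 1. The means were 26.3 ± 3.04 and 27.3 ± 1.91 RPKM (SD, n = 3 in each group), and the log2 fold change was 0.06 (SE 0.0834). Ccnd2 (chromosome 6, 127125162 to 127152193) had 18.2, 14.1 and 14.8 with β-gal and 15.6, 14.6 and 17.3 RPKM with Aloxe3. Its log2 fold change of 0.01 (SE 0.0968) was smaller than its SE, and its sign turned when β-gal replicate 2, β-gal replicate 3 or Aloxe3 replicate 9 was left out (-0.05, -0.02 and -0.05). That of Ccnd1 was -0.01 without β-gal replicate 2 and 0.14 without β-gal replicate 1. Ccnd3 (chromosome 17, 47505051 to 47599691) was at 5.61, 5.12 and 5.22 with β-gal and at 5.91, 5.32 and 6.39 RPKM with Aloxe3, with a log2 fold change of 0.12 (SE 0.0652). The groups of Ccnd3 overlapped through Aloxe3 replicate 8 alone.

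Cyclin E was next set against cyclin D within each library. The summed level of Ccne1 and Ccne2 was 16.0, 13.4 and 13.6 with β-gal and 24.0, 21.2 and 24.7 RPKM with Aloxe3. The summed level of Ccnd1, Ccnd2 and Ccnd3 was 53.5, 43.1 and 45.2 with β-gal and 48.8, 45.2 and 52.8 RPKM with Aloxe3. The sum of cyclin E was thus 1.63-fold and that of cyclin D 1.04-fold the β-gal mean. Per 100 RPKM of cyclin D there were 29.9, 31.0 and 30.1 RPKM of cyclin E in the β-gal libraries and 49.1, 46.9 and 46.8 RPKM in the Aloxe3 libraries. The ratio was more even among replicates than either sum. Its coefficient of variation was 1.95% with β-gal and 2.77% with Aloxe3, while the coefficient of the cyclin E sum was 10.1% and 7.98% and that of the cyclin D sum 11.6% and 7.8%. The counting error of Ccne1, the larger part of cyclin E, was 3.3% at its fewest reads (921), so the evenness of the ratio may understate the noise. The mean ratio was 30.3 ± 0.591 with β-gal and 47.6 ± 1.32 with Aloxe3 (SD, n = 3 in each group), a 1.57-fold higher value. Without Ccnd1, the most abundant of the 5 cyclins, the ratio of cyclin E to the other two cyclin D genes was 1.58-fold higher, from 68.2 ± 1.15 to 107 ± 3.69 per 100 (SD, n = 3 in each group). As a mean over genes, the log2 fold change of cyclin E exceeded that of cyclin D by 0.62, and leaving out any 1 library gave 0.61 to 0.63.

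**Figure D2:**
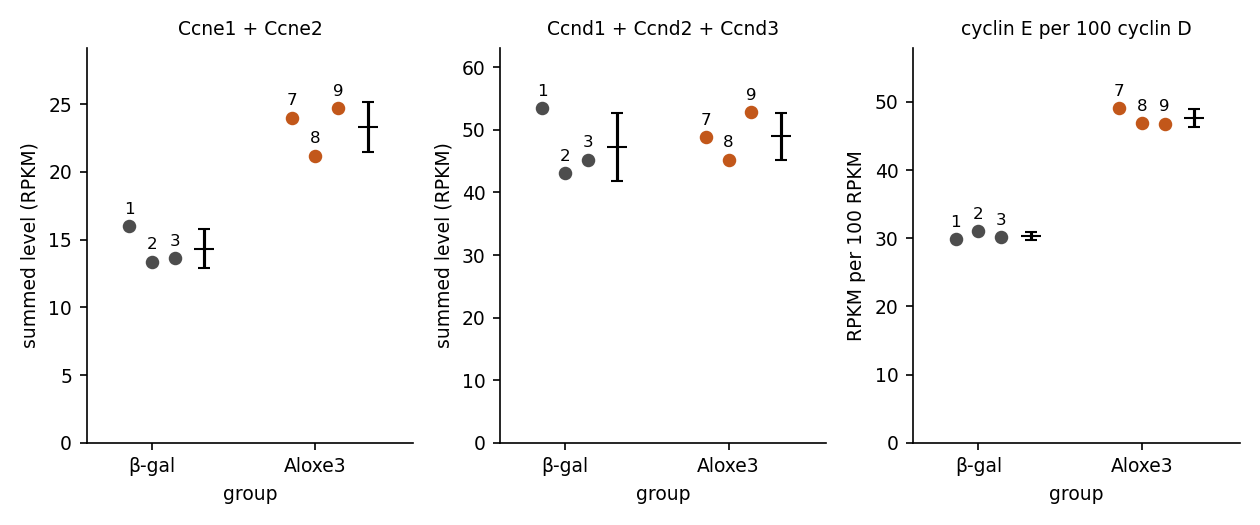
Summed level of the cyclin E genes and of the cyclin D genes in RPKM, and RPKM of cyclin E per 100 RPKM of cyclin D, in each library; numbers are replicates and bars are the mean ± SD of 3 libraries. Cyclin D overlaps between the groups, and the ratio is 29.9 to 31.0 with β-gal and 46.8 to 49.1 with Aloxe3.

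The composition of cyclin D itself was even across all libraries. Ccnd1 made up 55.5, 55.3 and 55.8% of the cyclin D sum with β-gal and 56.0, 56.0 and 55.1% with Aloxe3. Cyclin E made up 23.0 to 23.7% of the summed level of the 5 cyclins with β-gal and 31.9 to 32.9% with Aloxe3. The cyclins also deviated together within the groups: β-gal replicate 1 was the highest and replicate 2 the lowest β-gal library for 5 of the 5 cyclin genes, and Aloxe3 replicate 8 was the lowest Aloxe3 library for 5 of 5. Replicate 8 was the lowest Aloxe3 library for 9 of the 10 genes, all except Cdk4. Replicate 9, which stood apart from the other two over all genes, was the highest Aloxe3 library for 4 of the 5 cyclins and 7 of the 10 genes. Without it the log2 fold change was 0.57 for Ccne1, 0.67 for Ccne2, 0.01 for Ccnd1, -0.05 for Ccnd2, 0.06 for Ccnd3, 0.31 for Cdk2, 0.08 for Cdk4, 0.27 for E2f1, 0.17 for E2f2 and 0.06 for Rb1, and the difference between cyclin E and cyclin D was 0.61. Relative to the β-gal mean, the cyclin E genes averaged 0.698, 0.545 and 0.801 on the log2(RPKM + 1) scale in Aloxe3 replicates 7, 8 and 9, and the cyclin D genes 0.063, -0.046 and 0.173. In β-gal replicates 1, 2 and 3 the same averages were 0.125, -0.083 and -0.042 for cyclin E and 0.151, -0.103 and -0.048 for cyclin D.

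**Figure D3:**
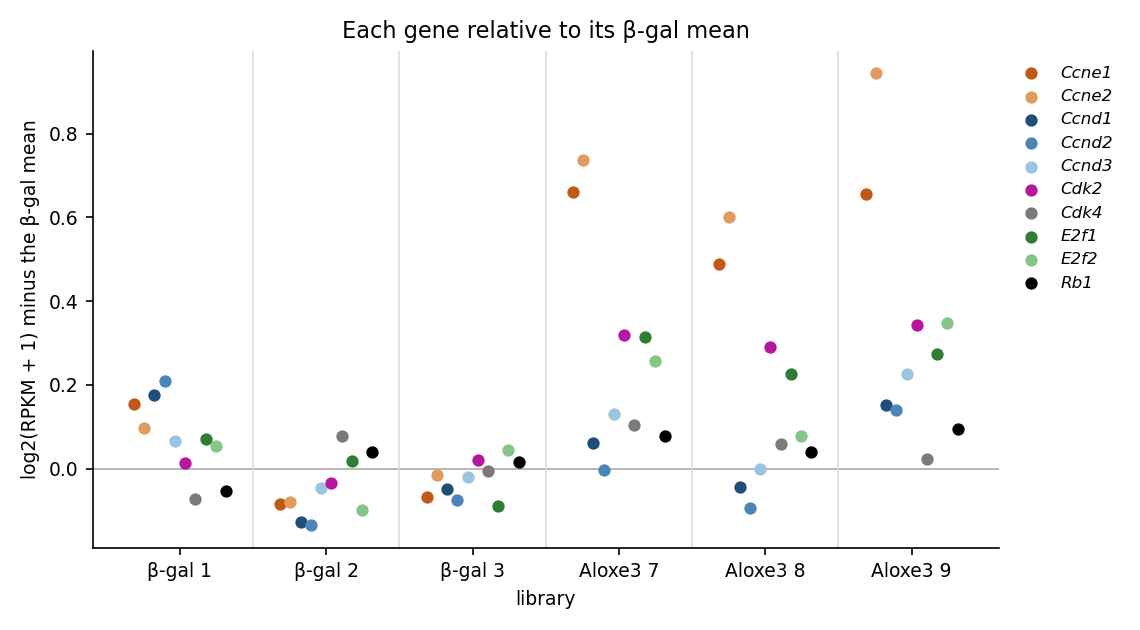
Each gene in each library as log2(RPKM + 1) minus its own β-gal mean (vertical axis, log2 units), one point per gene and library; the line at 0 is the β-gal mean. The cyclin E genes reach 0.489 or more in every Aloxe3 library, and no β-gal value of any gene exceeds 0.21.

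Of the kinases, Cdk2 (chromosome 10, 128697939 to 128705031), which pairs with cyclin E, was at 10.2, 9.80 and 10.2 with β-gal and at 12.8, 12.5 and 13.0 RPKM with Aloxe3. All Aloxe3 libraries were higher, and the replicates lay close together, with a coefficient of variation of 2.2% and 1.89%. Both are below the counting error of 3.69% at 734 recovered reads, the fewest of the 6 libraries, so this closeness may understate the noise. The level was 1.27-fold higher, with a log2 fold change of 0.32 (SE 0.0368). Cdk4 (chromosome 10, 127063534 to 127067920), the partner of cyclin D, had 52.5, 58.5 and 55.1 with β-gal and 59.6, 57.7 and 56.2 RPKM with Aloxe3. Its groups overlapped, and the log2 fold change was 0.06 (SE 0.0469). Per 100 RPKM of Cdk4 there were 16.8 to 19.3 RPKM of Cdk2 with β-gal and 21.5 to 23.1 with Aloxe3. The ratio of Ccne1 to Cdk2 was higher as well, at 115 to 136 per 100 with β-gal and 141 to 157 with Aloxe3.

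E2f1 (chromosome 2, 154559407 to 154569892), an activator of S phase genes, was at 10.1, 9.66 and 8.89 with β-gal and at 12.1, 11.3 and 11.7 RPKM with Aloxe3. The groups did not overlap and the log2 fold change was 0.27 (SE 0.0515). E2f2 (chromosome 4, 136172394 to 136196057), a related activator with 184 to 251 reads per library, had 1.403, 1.16 and 1.39 with β-gal and 1.77, 1.44 and 1.95 RPKM with Aloxe3. Its groups were apart only by the step from 1.403 to 1.44 RPKM, and the log2 fold change was 0.23 (SE 0.0845) with a pseudocount of 1 and 0.37 with voom on recovered reads. Rb1 (chromosome 14, 73183673 to 73325822), which holds E2F factors inactive, was at 1.98, 2.18 and 2.12 with β-gal and at 2.27, 2.18 and 2.30 RPKM with Aloxe3. Its log2 fold change was 0.07 (SE 0.0519), and the ranges met at 2.18 RPKM. E2f1 per Rb1 was 4.18 to 5.08 with β-gal and 5.09 to 5.33 with Aloxe3, while E2f2 per 100 RPKM of E2f1 overlapped between the groups at 12.0 to 15.6 and 12.8 to 16.6.

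Counted together, 5 of the 10 genes had every Aloxe3 library above every β-gal library, against 11.2% of all tested genes, and 5 overlapped. The log2 fold change was above 0 for 10 of 10, against 52.4% of tested genes, and its median was 0.17 against 0.005 over all genes. In the fit across all genes (limma, Benjamini-Hochberg adjustment) 3 of the 10, Ccne1, Ccne2 and Cdk2, had an adjusted p under 0.05, as had 0.394% of the tested genes. These counts restate the contrast the genes were chosen on. Between 0 and 1 of the 10 passed when any 1 library was left out, 0 without a filter on low values and 4 with voom on recovered reads. Over all genes tested in these fits 6 to 19 passed with 1 library left out, 7 of 24989 without a filter and 174 of 12693 with voom. By size of log2 fold change Ccne2 was 21st and Ccne1 51st of the 12693 genes, while Cdk2 was 229th, E2f1 332nd and Ccnd2 5747th.

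Some of the genes share ground with a neighbour on the other strand: Ccne2 with Ints8 (5622 bases, up to 5.61 RPKM), Ccnd1 with LTO1 (1771 bases, up to 5.26 RPKM), Cdk4 with Tspan31 (641 bases, up to 50.2 RPKM), Cdk2 with Pmel (837 bases, up to 0.247 RPKM), Ccnd3 with Bysl (361 bases, up to 26.1 RPKM), Ccnd2 with 9330179D12Rik (2805 bases, up to 0.28 RPKM) and Rb1 with Rcbtb2 (24171 bases, up to 2.25 RPKM) and Lpar6 (5400 bases, up to 3.19 RPKM). Ints8 thus reached a level above every Ccne2 library, Bysl one above every Ccnd3 library and Lpar6 one above every Rb1 library. The bases given are those shared by whole gene spans, introns included, so they do not measure shared exons. The counting kept unambiguous reads only, and whether it used strand is not stated.

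Other genes of the G1/S pathway were then examined as 7 lists, with the fit across all 12693 genes as the test. These lists too were chosen with earlier results of these data known, so their counts are not independent support. The first holds the CDK inhibitors, of which the p21 and p27 family (Cdkn1a, Cdkn1b, Cdkn1c) acts on cyclin E and CDK2 and the INK4 family (Cdkn2a to Cdkn2d) on CDK4 and CDK6. Of its 7 genes 5 were tested, 0 passed an adjusted p of 0.05 in either direction, and 3 had an unadjusted p under 0.05, all 3 with a higher value in Aloxe3 cells (7.31% of all tested genes were higher at that p). Their median log2 fold change was 0.18. Cdkn1a, which encodes p21, was the most abundant at 82.3, 84.2 and 81.4 with β-gal and 91.5, 96.6 and 96.3 RPKM with Aloxe3. Its groups did not overlap, and the difference of 0.20 on the log2 scale (SE 0.0364) did not pass with limma (adjusted p = 0.0993). With voom on recovered reads it did (adjusted p = 0.0231, the lowest of 0.0231 to 0.33 over 13 alternatives). The log2 fold change was 0.18 for Cdkn1b (95% interval 0.03 to 0.33), 0.23 for Cdkn2c (0.07 to 0.40), 0.07 for Cdkn2b (-0.08 to 0.23) and 0.10 for Cdkn2d (-0.11 to 0.30). Cdkn1c (0.252 and 0.302 RPKM on average) and Cdkn2a (0.279 and 0.362 RPKM) were under the filter.

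The pocket proteins and the other E2F and DP factors formed a list of 10 genes, all tested. Of these 2 passed, both higher (0.394% of all tested genes passed), and the median log2 fold change was 0.08. E2f7, an atypical E2F that represses E2F target genes, was at 0.881, 0.698 and 0.897 with β-gal and at 1.82, 1.56 and 1.99 RPKM with Aloxe3. It rose 2.17-fold in RPKM. On the log2(RPKM + 1) scale, which shrinks the difference of so low a gene, this was 0.61 (SE 0.0807; adjusted p = 0.0304, limma), against 1.03 with a pseudocount of 0.1 and 1.11 with voom on recovered reads. Rbl1, which encodes the pocket protein p107, had a mean of 3.41 ± 0.152 in the controls and rose to 4.58 ± 0.117 RPKM (SD, n = 3 in each group), which is 0.34 on the log2 scale (SE 0.0468; adjusted p = 0.0332, limma). Neither passed in any of the 6 fits that left out 1 library, where the adjusted p was 0.0623 to 0.13 for E2f7 and 0.103 to 0.13 for Rbl1. Over all 12 alternatives E2f7 passed in 4 and Rbl1 in 3. E2f8, the second atypical repressor, differed by 0.46 on the log2 scale (SE 0.116) and did not pass with limma (adjusted p = 0.216), with Aloxe3 libraries at 2.02, 1.80 and 2.78 RPKM against 1.49, 1.13 and 1.30. With voom on recovered reads it did pass, at 0.73 (adjusted p = 0.0173, the lowest of 0.0173 to 0.526 over 12 alternatives).

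The remaining factors of this list did not pass, and their log2 fold changes were small. E2f4, a repressor partner of pocket proteins and the most abundant E2F here at 76.1 RPKM with β-gal, had a log2 fold change of 0.003 (95% interval -0.13 to 0.14). The values were 0.07 for the activator E2f3 (-0.03 to 0.18), 0.03 for E2f6 (-0.10 to 0.16), 0.09 for the dimer partner Tfdp1 (0.02 to 0.17), 0.09 for Tfdp2 (-0.04 to 0.21) and -0.01 for Rbl2 (-0.19 to 0.16), which encodes p130. E2f5 stood the other way, at 6.86 ± 0.241 with β-gal and 6.30 ± 0.13 RPKM in Aloxe3 cells (SD, n = 3 in each group), which is -0.11 on the log2 scale (adjusted p = 0.352 from limma).

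Of 25 textbook targets of E2F, most of them genes for DNA replication and nucleotide supply, all 25 were tested, 2 passed, both higher, and 18 had an unadjusted p under 0.05, all higher (0.394% and 7.31% of all tested genes). In 17 of the 25 every Aloxe3 library was above every β-gal library, and the log2 fold change was above 0 in 24 (11.2% and 52.4% of all tested genes). The median was 0.22, with a range from -0.11 for Gins1 to 0.40 for Slbp. Slbp, whose product binds the stem-loop of histone mRNA, was at 7.12, 6.86 and 6.94 with β-gal and at 9.11, 9.29 and 10.3 RPKM with Aloxe3. It rose 1.37-fold (log2 fold change 0.40, SE 0.0506, adjusted p = 0.027 from limma). Mcm6, a subunit of the replicative helicase, had a mean of 34.1 ± 1.89 in the controls and rose to 42.6 ± 1.2 RPKM (SD, n = 3 in each group; log2 fold change 0.32, SE 0.0472, adjusted p = 0.0498 from limma). When 1 library was left out, Slbp passed in 1 of 6 fits (without Aloxe3 replicate 9, adjusted p = 0.0426, in a range of 0.0426 to 0.13) and Mcm6 in 0 of 6. Over all 13 alternatives Slbp passed in 5 and Mcm6 in 2, the call of Mcm6 being lost with a pseudocount of 0.1, without a filter, without trend and under both other scalings. Rrm1, the large subunit of ribonucleotide reductase, had a log2 fold change of 0.31 (adjusted p = 0.0521), and Mcm2, the most abundant of the list over all 6 libraries (with Aloxe3 alone Mcm6 was above it), of 0.12 (adjusted p = 0.406). With voom on recovered reads 10 of the 25 passed, all higher, as did 174 of all 12693 genes in either direction.

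Among the other cyclins, kinases and phosphatases of G1 and S, 10 of 14 genes were tested and 0 passed (1, Wee1, with voom on recovered reads, where 174 of all 12693 genes passed), with 3 at an unadjusted p under 0.05, all higher (7.31% of all tested genes). The median log2 fold change was 0.01. Cdk6, the second partner of cyclin D, was at 34.9 ± 0.862 with β-gal and 34.7 ± 1.32 RPKM in Aloxe3 cells (SD, n = 3 in each group), with a log2 fold change of -0.01 (95% interval -0.10 to 0.09). The log2 fold change was 0.35 for Wee1 (adjusted p = 0.194), a kinase that restrains CDK1 and CDK2, 0.31 for Ccna2 (adjusted p = 0.285), the cyclin that follows cyclin E on CDK2, and 0.27 for Cdk1 (adjusted p = 0.257), the mitotic kinase, all from limma. Ccna1 was at 0 in every library. Of the MuvB subunits with Mybl2 and Foxm1, which act on later cell cycle genes, 7 of 7 were tested and 0 passed with limma or with voom, 3 with an unadjusted p under 0.05, all higher, against the same 7.31%. Their log2 fold changes were 0.20 for Mybl2, 0.20 for Foxm1, 0.15 for Lin54 and 0.08 for Rbbp4, the most abundant, with a median of 0.15 over the list.

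Markers of S phase and mitosis were low, with 9 of 10 genes tested, Aurka the most abundant at 3.58 RPKM with β-gal, and Ccnb1 under the filter. None passed with limma, and 3 had an unadjusted p under 0.05, all higher (7.31% of all tested genes), with a median log2 fold change of 0.14. With voom on recovered reads 2 passed, Mki67 and Top2a, as did 174 of all 12693 genes in either direction. Mki67, the proliferation antigen Ki-67, was at 2.67, 2.36 and 2.63 with β-gal and at 4.21, 3.29 and 4.24 RPKM with Aloxe3. Its difference of 0.46 on the log2 scale (SE 0.0853) had an adjusted p of 0.0974 with limma, and among the fits with 1 library left out it passed only when Aloxe3 replicate 8 was left out (adjusted p = 0.0485, in a range of 0.0485 to 0.351). That of Top2a, the DNA topoisomerase of dividing cells, was 0.26 (adjusted p = 0.203), that of Plk1 0.29 (adjusted p = 0.317) and that of Aurka 0.11 (adjusted p = 0.581).

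**Figure D4:**
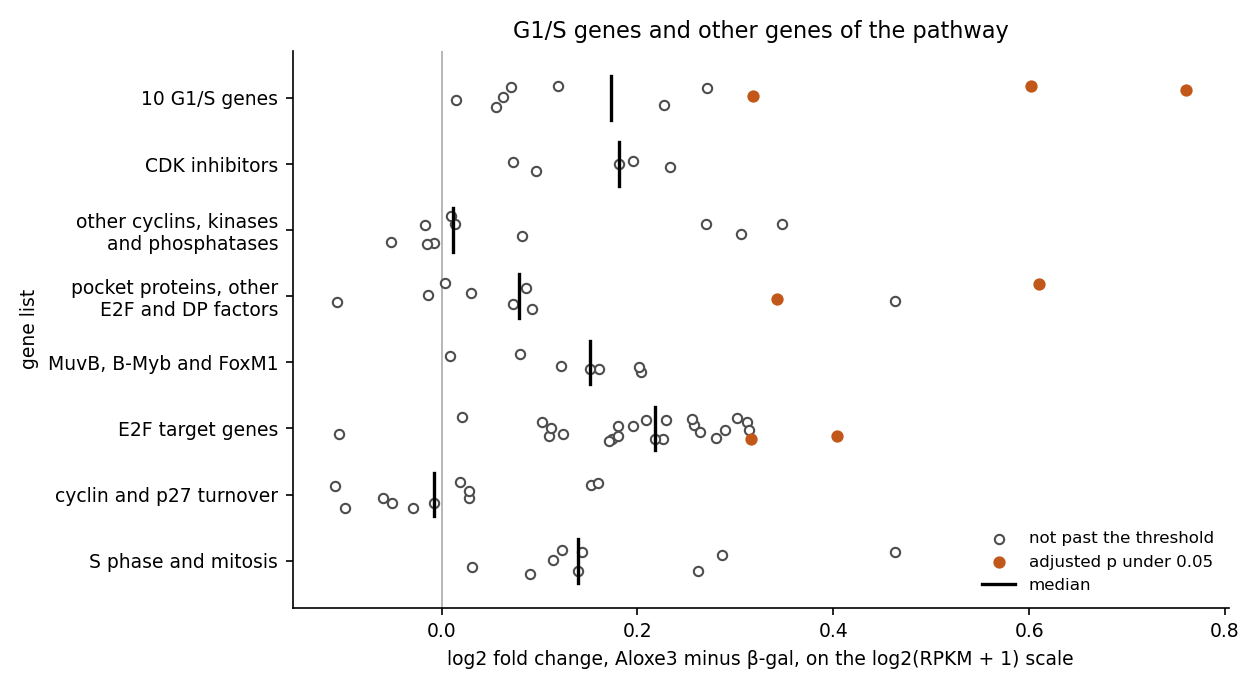
Log2 fold change of Aloxe3 over β-gal on the log2(RPKM + 1) scale for the 10 G1/S genes and for each tested gene of the 7 other lists; filled points have an adjusted p under 0.05 (limma) and bars are medians. The 10 genes were chosen on this contrast, and the 7 lists with earlier results of these data known. The median is 0.22 for the E2F target genes, 0.01 for the other cyclins, kinases and phosphatases and -0.01 for the genes of cyclin and p27 turnover.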

How the data were processed

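RNA from 6 libraries of primary mouse hepatocytes was sequenced as single reads of 50 bases. The authors aligned the reads with STAR 2.0.4b to Ensembl release 76 (GRCm38.p2 per the labels), counted reads that were aligned once and fell in 1 gene with featureCounts 1.4.5, and deposited a table of RPKM values (41388 Ensembl genes). The step from counts to RPKM is not given in the sources used here. Library sizes and reads per gene were recovered from the whole-number steps of the values (tolerance 0.01 reads); for Ccnd1, Ccnd2 and Cdk2, whose exon length in GENCODE M21 gave no whole reads, the smallest length that did was used. Symbols and positions come from GENCODE M21 (40340 identifiers matched).

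Groups came from the sample titles. RPKM was tested as log2(RPKM + 1) after a filter on the mean (0.5 RPKM or more), with limma 3.58.1 in R 4.3.3 (eBayes with trend, Benjamini-Hochberg adjustment at 0.05, two-sided). The fit was run on simulated data with the same spread setting for every gene and no library that stood apart. Such data differ from these libraries, so the run does not show how the fit performs here. The genes, lists and tests were chosen with earlier results of these data known. Genes named are the 10 members, Aloxe3, all CDK inhibitors, pocket proteins and E2F and DP factors, in each other list the most abundant gene, the 3 with the smallest p and any past the threshold, and the 3 most like Ccne1 and Ccnd1. Markers and Gins1, Ccna1, Ccnb1, Fbxw7, Usp2 and overlapping neighbours were named after their values were seen. Alternatives were another pseudocount, other filters and scalings, eBayes without trend, each library left out, and voom on recovered reads. Ranges of reads give counting error only.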

Additional observations from a re-analysis of the deposited data

How the results depend on the processing

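The alternatives for each of the 10 genes left the direction of 8 as it was, and Ccnd1 and Ccnd2 turned sign in 1 and 3 of the 6 fits without a given library. The log2 fold change moved by more than the SD between replicates for Ccne2 and E2f2 with a pseudocount of 0.1 and for these and Cdk2 with voom; the filters and eBayes without trend cannot change it. The difference between the mean log2 fold changes of cyclin E and cyclin D was 0.75 with a pseudocount of 0.1 and 0.76 with voom on recovered reads, against 0.62, and could not be given with the filter at a mean of 5 RPKM, which removes Ccne2. Over all genes 50 passed, against 7 without a filter on low values, 174 with voom and 6 to 19 with 1 library left out; the share of higher genes among them was 90% and 85.1% with voom. In the list of pocket proteins and E2F and DP factors 2 passed, against 0 without a filter or with quantile normalization, 1 after rescaling to the same median, 3 with voom (E2f8 joined) and 0 in each fit with a library left out; the filter at 5 RPKM, which removes both genes, gave 0. Of the E2F target genes 2 passed, against 1 with a pseudocount of 0.1, 0 without a filter, 4 with the filter at 5 RPKM, 0 after rescaling or quantile normalization, 1 without trend, 10 with voom and 0 to 1 with a library left out. With voom 1 of the CDK inhibitors, 1 of the other cyclins, kinases and phosphatases and 2 of the markers of S phase and mitosis passed, and the last list had 0 to 1 with a library left out. The cause of the other changes was not tested. No paired analysis was made, because the groups share no replicate number and whether libraries of the 2 groups share a cell preparation is not stated. With 3 libraries per group an exact permutation test cannot give a two-sided p below 0.1. Among the 10 genes, E2f2 and Ccne2, with 184 to 251 and 200 to 435 reads per library, have the largest counting error. Some genes of the lists had fewer reads, such as Cdkn2d with 34 to 52.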

Other observations

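Of 12 genes for the turnover of cyclins and p27, ubiquitin ligase parts and the deubiquitinase Usp2, 11 were tested (all but Usp2) and 0 passed with limma, also with voom on recovered reads, while 3 had an unadjusted p under 0.05, 2 higher and 1 lower (1616 of all 12693 tested genes in either direction). Of these Skp2, the subunit that recognizes p27, was at 1.01, 1.03 and 1.05 with β-gal and at 1.16, 1.29 and 1.33 RPKM with Aloxe3 (log2 fold change 0.15, adjusted p = 0.348). Rbx1, the RING subunit, had a log2 fold change of 0.16 (adjusted p = 0.249), and Fzr1, an activator of the anaphase-promoting complex, averaged 15.4 ± 0.652 RPKM in the controls and 14.2 ± 0.4 in Aloxe3 cells (SD, n = 3 in each group; log2 fold change -0.11, adjusted p = 0.358). Fbxw7, which recognizes cyclin E, had a log2 fold change of 0.03 (95% interval -0.07 to 0.12), and Skp1a, the most abundant of the list, of 0.03 (-0.05 to 0.11). The median of the list was -0.01.

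The genes whose log2(RPKM + 1) ran most like that of Ccne1 over the 6 libraries were Tubgcp2 (Pearson r = 0.9935), Ect2 (0.9934) and Ms4a6d (0.9934), out of 12683 genes compared. Those most like Ccnd1 were Hdac1 (0.9942), Piezo1 (0.9882) and Areg (0.9726), the last of which encodes the growth factor amphiregulin and was at 36.7 RPKM on average with β-gal and 40.0 RPKM with Aloxe3. These are descriptions, and the points share the group and depth of the same 6 libraries.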
